A study of Bos taurus with 15 samples.

Results

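The insulin-like growth factor (IGF) family was followed in cattle (Bos taurus) from the oocyte to the blastocyst through 10 genes: the ligand genes IGF1 and IGF2, the receptor genes IGF1R and IGF2R, and the binding protein genes IGFBP1, IGFBP2, IGFBP3, IGFBP4, IGFBP5 and IGFBP7. The members were all probe sets that the array's annotation assigned to these symbols, without regard to their signals. This gave 19 probe sets among 24016 tested, and 10 genes among 9155 named on the array. IGF1 and IGF2 had 4 probe sets each, IGF1R, IGF2R and IGFBP3 had 2 each, and the other genes had 1 each. Probe sets of 1 gene are numbered from the brightest down.

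IGF1 and IGF2 are secreted growth factors that signal through IGF1R, a receptor tyrosine kinase. IGF2R binds IGF2 without passing on a growth signal and carries it to lysosomes, and the same protein is the cation-independent mannose 6-phosphate receptor, which sorts newly made lysosomal enzymes. The binding proteins hold IGFs outside the cell and lengthen or restrict their action until proteases cut them. In cattle, as in other mammals, IGF signals reach the embryo from the oviduct and uterus as well as from the embryo itself, and IGF2R in sheep has been tied to the overgrowth of fetuses from cultured embryos.

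The 15 arrays, Affymetrix Bovine Genome arrays, were divided among 3 of oocytes, 2 of 1-cell embryos, 1 each of 2-cell, 4-cell, 8-cell and 16-cell embryos, 3 of morulae and 3 of blastocysts. All groups came from one in vitro scheme, in which oocytes aspirated from small follicles inside their cumulus cells were matured with LH, FSH and fetal calf serum, fertilized and cultured in serum-free SOF medium with albumin. The labels give no strain, animal or number of embryos per array, and cumulus cells were removed by vortexing only after fertilization, so whether the oocyte arrays hold oocytes freed of cumulus in the same way is not given in the sources used here. The labels call the replicates biological without naming their source, and p-values therefore measure the spread between these arrays.

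Signals were intensities on a linear scale. Fold changes and their errors were computed on log2(signal + 16), which understates changes of dim probe sets. A change was called where limma gave an adjusted p under 0.05 over all 24016 probe sets. Only the 4 replicated stages were tested, and 2-cell to 16-cell values are given as single arrays with no replicate check. Arrays of similar overall level show a share of the amplified RNA, and in whole embryos fewer cells of a type and less RNA per cell cannot be told apart.

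Mean signal ran from 558 to 717 per array and median signal from 39.7 to 61.7. Bacterial transcripts added as labelling controls (poly(A) spike-in) gave signal on 9 arrays, namely oocyte 2 and 3, 1-cell 2, the 4 single arrays, morula 3 and blastocyst 3, and were near background on the other 6. GAPDH has control probe sets at its middle and its 3' end, and the ratio of these signals falls when labelled RNA is short. It lay between 0.339 and 0.643 in blastocysts, 0.100 and 0.625 in morulae and 0.0374 and 0.237 in oocytes. The 8 oocyte marker genes summed to 887 to 927 in blastocysts and 1008 to 1376 in morulae, against 30012 to 53125 in oocytes, the direction the labels call for, and to 11710 on the 16-cell array. Of 21 measured cumulus and granulosa genes, 1 rose and 4 fell in morulae against oocytes, where 17.8% of all genes rose and 8.67% fell. In blastocysts against oocytes 5 rose and 3 fell, where 18.1% of all genes rose and 9% fell. Their summed signal was 17512 to 22627 in blastocysts, 14817 to 17714 in morulae and 8706 to 12953 in oocytes. The list held signals of both kinds in oocytes: STAR read 2537 to 2958, VCAN 713 to 1396 and TNFAIP6 70.2 to 1072, and these 3 fell in morulae and blastocysts, while FSHR, CYP19A1 and AMH never exceeded 44.8, 39.4 and 59.2 on any array. Other bright genes of the list went the other way or stayed bright. HAS2 read 1310 to 1776 in oocytes and 8622 to 9257 in morulae. HSD3B1 and PTGS2 were at most 60.8 and 225 in oocytes and reached 3867 and 6410 in blastocysts. SERPINE2 read 1990 to 6292 over all arrays. The part of cumulus cells in the results was not tested.

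Most of the family was dim throughout. Of the 19 probe sets, 11 never exceeded a signal of 100 on any array and 13 never exceeded 200. The 3 that stayed above the array's median on all 15 arrays belonged to IGF1, IGFBP3 and IGFBP7, 4 were above it on no array and the other 12 on some. Signals above 1000 were reached by 5 probe sets, 1 each of IGF2R, IGF1 and IGFBP7 and both of IGFBP3. Probe sets differ in how strongly they respond, so these signals do not rank the genes by transcript level. The map of the family's signals shows these as the light rows.

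**Figure D1:**
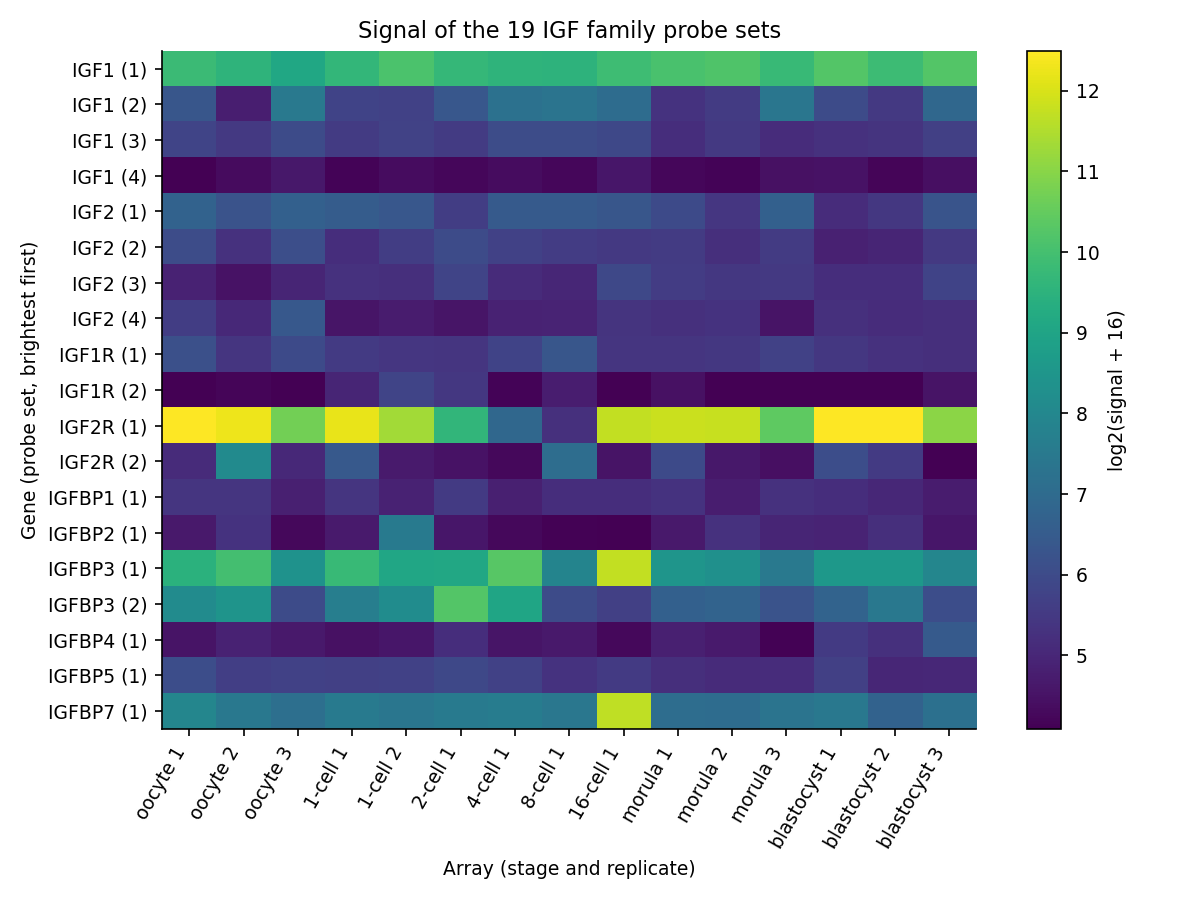
Signal of each of the 19 probe sets (rows, by gene, the brightest of each gene numbered 1) on each of the 15 arrays (columns, oocyte to blastocyst), coloured by log2(signal + 16). The first IGF2R row is bright in all stages but fades on the 2-cell, 4-cell and 8-cell arrays, and the 16-cell array stands out in the first IGFBP3 row and the IGFBP7 row.

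Between replicated stages few members of the family passed the test. In morulae against oocytes 1 of the 19 probe sets passed the test, a dim one of IGF2 that was higher, where 18.9% of all probe sets passed and 11.8% passed higher. In blastocysts against oocytes 1 of 19 passed, that of IGFBP4, also higher, where 19.3% of all passed and 11.9% passed higher. None passed in blastocysts against morulae, where 0.167% of all did, or in 1-cell embryos against oocytes, where 0.271% of all did. With limma's unadjusted p under 0.05, the members numbered 3 in morulae against oocytes, 1 in blastocysts against morulae, 5 in blastocysts against oocytes and 2 in 1-cell embryos against oocytes, where 7587, 1859, 7551 and 1824 of all 24016 probe sets did. The balance of higher and lower calls depended on the scaling. Over all probe sets 2830 were higher and 1720 lower in morulae, against 2431 and 2302 with quantile normalization and 2511 and 2269 with median centring, and in blastocysts 2856 and 1768, against 2465 and 2295 and 2527 and 2270. Among the 19 in morulae, quantile normalization gave 0 higher and 2 lower and median centring 0 higher and 1 lower. The IGF2 probe set kept a positive log2 change in both, 0.63 and 0.55, but did not pass. The median log2 change over the 19 was -0.37 in morulae against oocytes, beside 0.04 over all probe sets, and -0.33 in blastocysts against oocytes, beside 0.01. It was 0.08 in blastocysts against morulae, beside -0.03, and -0.08 in 1-cell embryos against oocytes, beside 0.01. These comparisons share arrays and are set side by side only. The arrays of both stages did not overlap at 3 of the 19 in morulae against oocytes, where 35.1% of all probe sets did not, at 3 in blastocysts against oocytes (34.8% of all), at 1 in blastocysts against morulae (14.2%) and at 3 in 1-cell embryos against oocytes (21.2%).

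**Figure D2:**
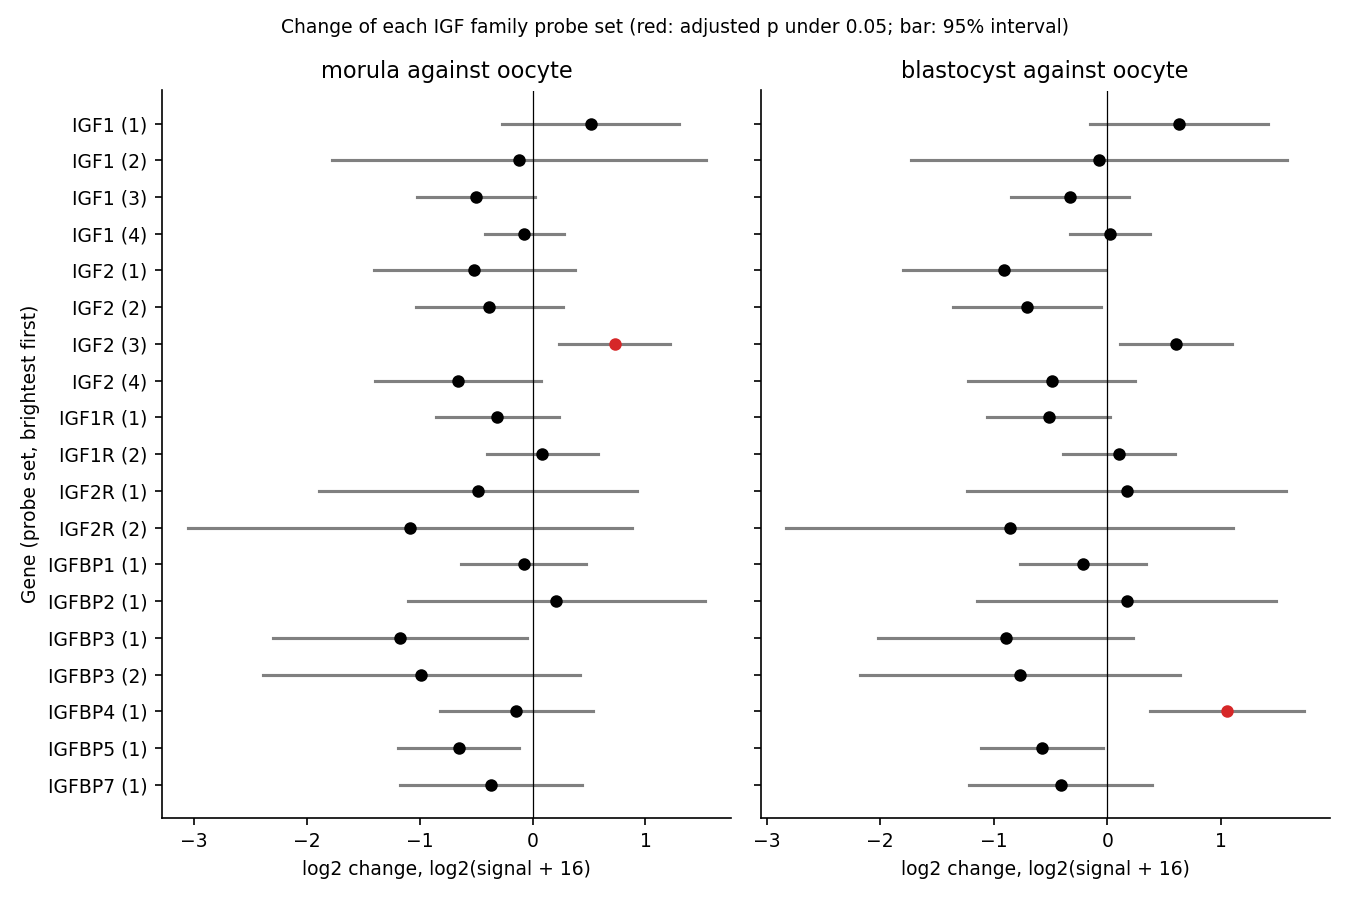
Log2 change of each of the 19 probe sets in morulae against oocytes (left) and blastocysts against oocytes (right), on log2(signal + 16), with the 95% interval as a bar. The 2 red points mark adjusted p under 0.05, IGF2 in morulae at 0.73 and IGFBP4 in blastocysts at 1.05, and most other intervals reach across 0.

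Of the ligands, IGF1 had 1 probe set with signal above the array's median on every array. That probe set read 880, 741 and 534 in oocytes, 786 and 1100.0 in 1-cell embryos, 814 at 2 cells, 736 at 4 cells, 724 at 8 cells, 935 at 16 cells, 1069, 1133 and 854 in morulae, and 1210, 899 and 1211 in blastocysts. Every array lay between 534 and 1211, the blastocyst arrays all above the oocyte arrays and the morula arrays overlapping both. The stage means ran from blastocysts at 1107 ± 180 (SD, n = 3) through morulae, 1-cell and 16-cell embryos down to oocytes at 718 ± 174 (SD, n = 3), and neighbours in this order that both had replicates overlapped. Against oocytes it had a log2 change of 0.51 in morulae (SE 0.35, adjusted p = 0.360) and 0.63 in blastocysts (SE 0.35, adjusted p = 0.259), with limma, and neither passed.

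The other 3 IGF1 probe sets were dimmer and moved otherwise. IGF1 probe set 2 spread from 11.8 to 164 within oocytes alone, and was highest on the array numbered 3 in oocytes, morulae and blastocysts. IGF1 probe set 3 stayed between 19.7 and 50.4, and was lower in morulae by a log2 change of -0.50 (SE 0.23) and in blastocysts by -0.33 (SE 0.23) against oocytes, with limma's adjusted p = 0.177 and 0.386. IGF1 probe set 4 never exceeded 9.03. The probe sets of IGF1 thus gave no common direction.

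IGF2, the fetal growth factor of mammals, had no bright probe set. Its highest signal on any array was 89.3, at probe set 1. The probe set that passed the test, number 3, read 32.2, 27.6 and 29.2 in morulae, against 13.8, 6.45 and 15.3 in oocytes. All morula arrays were above all oocyte arrays, and the log2 change was 0.73 (SE 0.22, limma adjusted p = 0.0452). It read 20.6, 20.6 and 38.6 in blastocysts, with a log2 change of 0.60 against oocytes (SE 0.22, adjusted p = 0.0883), 23.3 and 21.0 in 1-cell embryos, and 40.1, 18.5, 16.0 and 43.5 at 2, 4, 8 and 16 cells. On none of the 15 arrays did it reach the array's median, and its call held in 6 of 17 alternative settings, with adjusted p from 0.0232 to 0.504. It was lost without oocyte 1 or 2 or any 1 morula array (adjusted p from 0.0728 to 0.154).

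The other 3 IGF2 probe sets pointed down. In blastocysts against oocytes, IGF2 probe set 1 had a log2 change of -0.91 (SE 0.40, limma adjusted p = 0.151), probe set 2 of -0.71 (SE 0.29, adjusted p = 0.128) and probe set 4 of -0.49 (SE 0.33, adjusted p = 0.360). In morulae against oocytes probe set 4 had -0.66 (SE 0.33, adjusted p = 0.208). In 1-cell embryos it read 7.77 and 10.5, against 32.9, 17.4 and 69.1 in oocytes, a log2 change of -1.04 (SE 0.37, adjusted p = 0.433). None of these passed, so the array's 4 probe sets for IGF2 disagreed in direction.

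Of the receptors, IGF2R had the widest swing over the arrays of the family's probe sets. Its bright probe set read 5763, 4951 and 1667 in oocytes and 4722 and 2556 in 1-cell embryos. It read 770 at 2 cells, 103 at 4 cells and 22.6 at 8 cells. It read 3340 at 16 cells, 3602, 3545 and 1352 in morulae, and 5726, 5633 and 2098 in blastocysts. The 2-cell, 4-cell and 8-cell arrays all lay below every array of the other stages, and the 16-cell array lay among the morulae and oocytes. On the log2 scale the lowest oocyte or morula array was 3.53 above the higher of the 4-cell and 8-cell arrays.

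By stage mean, IGF2R stood at 4486 ± 2068 in blastocysts (SD, n = 3), 4127 ± 2169 in oocytes (SD, n = 3), 3639 ± 1531 in 1-cell embryos (SD, n = 2), 3340 at 16 cells and 2833 ± 1283 in morulae (SD, n = 3). The arrays of neighbouring stages overlapped throughout this upper group, and the order within it is not resolved. Its log2 change was -0.48 in morulae against oocytes (SE 0.63, 95% interval -1.89 to 0.92, limma adjusted p = 0.657) and 0.65 in blastocysts against morulae (SE 0.63, 95% interval -0.75 to 2.06, adjusted p = 0.927). Neither change passed, and each interval includes 0.

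The dip rests on 3 single arrays. A low reading on both the 4-cell and the 8-cell array, at least 4-fold below every oocyte and morula array, was found at 0.329% of all probe sets, and 0.225% were also at least 4-fold below the 16-cell array. IGF2R was the 1 of the 19 members in each count, and the count was set up after its values were seen. The 3 arrays of the dip all carried the spike-in signal, as did the array numbered 3 of each replicated stage with 3 arrays, which was the lowest of its stage for IGF2R at 1667, 1352 and 2098. Of the 1-cell arrays, the one with the signal read 2556 and the one without it 4722. The 16-cell array carried it too and read 3340, and oocyte 2, also with it, read 4951. The GAPDH ratio was 0.237 at 2 cells, 0.0935 at 4 cells, 0.0572 at 8 cells and 0.134 at 16 cells, against 0.0374 on oocyte 3, where IGF2R read 1667. The part of the spike-in class or RNA completeness in the dip was not tested.

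**Figure D3:**
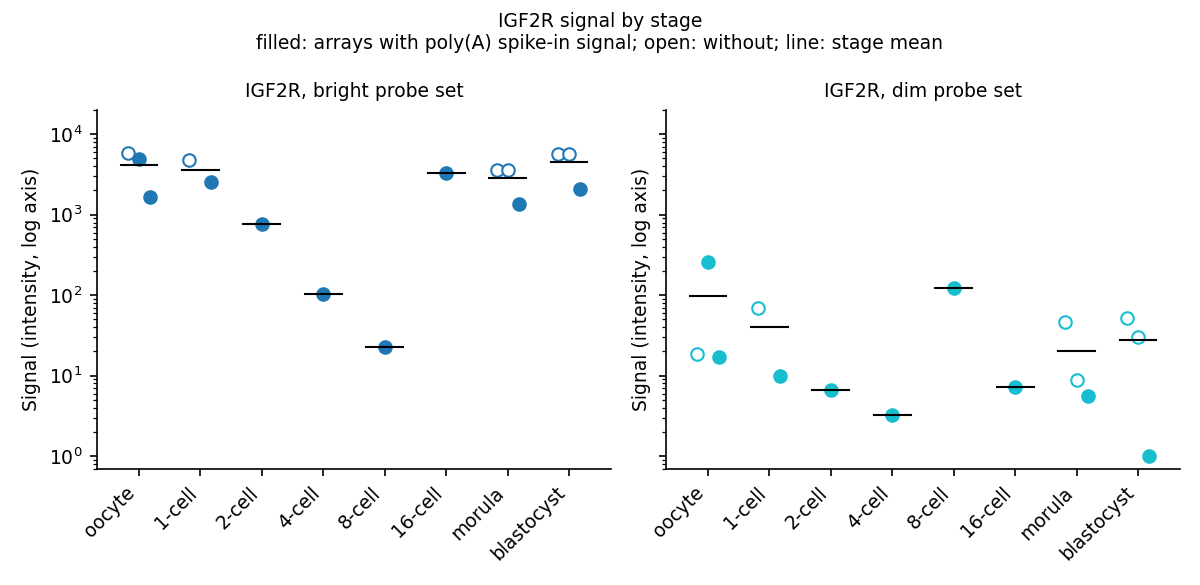
Signal of the 2 IGF2R probe sets on each array (points, log axis) by stage, with the stage mean as a line. Filled points are arrays with spike-in signal and open points are arrays without. The bright probe set reads 770, 103 and 22.6 at 2, 4 and 8 cells and 3340 at 16 cells, while the dim one shows no such course.

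The other IGF2R probe set did not follow this course. It ranged from 1.0 to 261 and was highest on oocyte 2 at 261 and on the 8-cell array at 122, where the bright one was lowest. It passed in none of the 4 comparisons.

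The genes whose bright probe sets ran most like IGF2R over the 15 arrays, by Pearson correlation of log2(signal + 16), were PIK3R4 at 0.958, FGFR1OP2 at 0.935 and ELP2 at 0.933. They were the top 3 of 5551 genes whose stage means spanned at least 2 on the log2 scale. PIK3R4, a regulatory subunit of the class III phosphoinositide kinase, averaged 2239 in oocytes and 2125 in 1-cell embryos, read 1025, 429 and 65.6 at 2, 4 and 8 cells and 3099 at 16 cells, and averaged 2684 in morulae and 3653 in blastocysts. FGFR1OP2 read 85.2 at 4 cells and 10.98 at 8 cells, against 7086 at 16 cells. ELP2, a subunit of the Elongator complex, read 748 at 4 cells and 68.9 at 8 cells, against 4310 at 16 cells. These correlations describe arrays whose labels give one amplification scheme but which differ in spike-in signal, and were not recomputed without the arrays of the dip.

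IGF1R, the signalling receptor, had low signals at both probe sets. Probe set 1 stayed between 21.1 and 64.8, with a log2 change of -0.52 in blastocysts against oocytes (SE 0.24, limma adjusted p = 0.180). Probe set 2 read 15.1 and 40.3 in 1-cell embryos, against 1.0, 2.50 and 1.0 in oocytes. That was a log2 change of 1.26 (SE 0.25), and with limma's adjusted p = 0.0831 it did not pass, although it did without 1-cell replicate 1 (adjusted p = 0.0173). That fit holds a lone 1-cell array, which is assumed to vary like the other stages. It read 28.1 at 2 cells and was at most 11.04 on the 4-cell and all later arrays. INSR, the insulin receptor gene, which binds IGF2 in its shorter isoform, had 5 probe sets between 1.0 and 38.6, and none passed in any comparison.

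Of the binding protein genes, IGFBP3 encodes the main carrier of IGFs in blood. Its brighter probe set read 686, 996 and 314 in oocytes, 851 and 523 in 1-cell embryos, 540 at 2 cells, 1242 at 4 cells, 220 at 8 cells and 3397 at 16 cells. It read 340, 299 and 165 in morulae and 368, 366 and 232 in blastocysts. Oocytes 1 and 2 lay above every morula and blastocyst array, and oocyte 3 lay among them. The log2 change was -1.18 in morulae against oocytes (SE 0.50, 95% interval -2.30 to -0.05, limma adjusted p = 0.141) and -0.90 in blastocysts against oocytes (SE 0.50, adjusted p = 0.264), and neither passed.

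The other IGFBP3 probe set read 265, 332 and 48.8 in oocytes, 192 and 272 in 1-cell embryos, 1207 at 2 cells, 512 at 4 cells, 48.3 at 8 cells and 35.3 at 16 cells. It read 85.3, 91.9 and 59.1 in morulae and 92.4, 160 and 51.1 in blastocysts. Its log2 change was -0.98 in morulae (SE 0.63, limma adjusted p = 0.329) and -0.77 in blastocysts (SE 0.63, adjusted p = 0.461), both against oocytes. The probe sets had the same sign in these comparisons, but at 16 cells one was at its highest while the other was at its lowest, and at 2 cells the brighter one was within its oocyte range while the other was at its highest.

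IGFBP3 passed in no comparison with all arrays as deposited, but it did in a few alternatives, with and without oocyte 3. In morulae against oocytes the brighter probe set passed in 3 of 18 alternative settings and the other in 2 of 18. In blastocysts against oocytes the brighter one passed in 0 of 18 and the other in 1 of 18. Oocyte 3 had the lowest signal of its stage at both probe sets and the lowest GAPDH ratio of all arrays, and the part of its RNA completeness was not tested. Without oocyte replicate 3 the log2 change in morulae was -1.63 (adjusted p = 0.0346) for the brighter probe set and -1.74 (adjusted p = 0.0269) for the other, and in blastocysts it was -1.53 (adjusted p = 0.0467) for the other. Without all arrays numbered 3 it was -1.33 (adjusted p = 0.0321) and -1.58 (adjusted p = 0.0174) in morulae, and with quantile normalization the brighter probe set had -1.63 (adjusted p = 0.0371). All of these are limma values against oocytes.

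**Figure D4:**
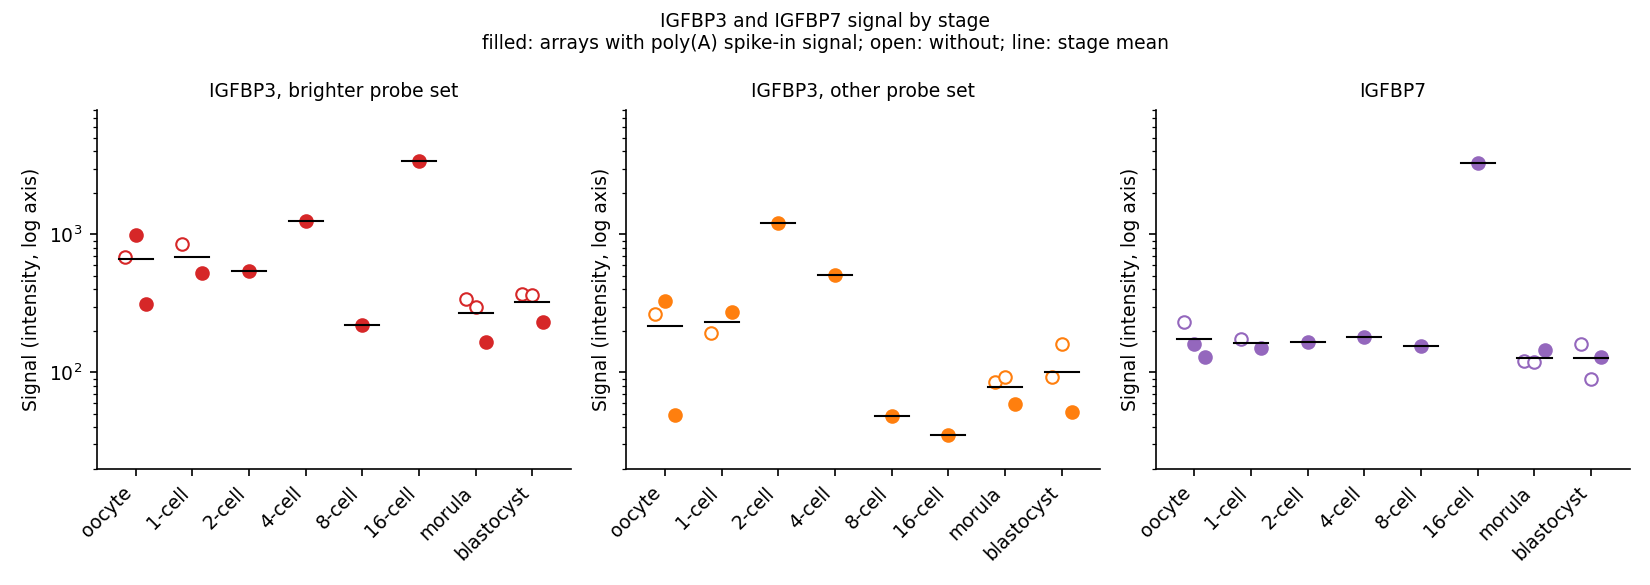
Signal of the 2 IGFBP3 probe sets and of IGFBP7 on each array (points, log axis) by stage, with the stage mean as a line. Filled points are arrays with spike-in signal and open points are arrays without. The brighter IGFBP3 probe set and IGFBP7 are highest on the 16-cell array at 3397 and 3273, while the other IGFBP3 probe set is lowest there at 35.3.

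IGFBP7 encodes a secreted matrix protein that binds IGFs only weakly and also insulin. Its probe set stood apart on 1 array. It read 233, 159 and 128 in oocytes, 174 and 151 in 1-cell embryos, and 166, 182 and 155 at 2, 4 and 8 cells. It read 3273 at 16 cells, then 121, 118 and 144 in morulae and 160, 89.1 and 129 in blastocysts. The 16-cell array was 13.2-fold above the next highest array, and the rest spanned 89.1 to 233. The log2 change was -0.37 in morulae against oocytes (SE 0.36, limma adjusted p = 0.546) and -0.41 in blastocysts against oocytes (SE 0.36, adjusted p = 0.495).

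A signal at least 4-fold above every other array was found on the 16-cell array for 0.949% of all probe sets, and IGFBP7 was the 1 member that met this. The count was not planned beforehand and rests on a single array. The brighter IGFBP3 probe set was 2.71-fold above its next highest array. Genes with the course most like IGFBP7 were LRATD1 at a Pearson correlation of 0.971, LOC510988 at 0.967 and GUCY2C, a receptor guanylate cyclase, at 0.962. LRATD1 read 2147 and GUCY2C read 2059 at 16 cells, against oocyte means of 58.0 and 34.8. Those most like the brighter IGFBP3 probe set were JPH1 at 0.932, SLC25A30 at 0.891 and SFRP2, a secreted Wnt antagonist, at 0.872. JPH1 read 685 at 4 cells and 1403 at 16 cells, and SFRP2 read 7176 at 16 cells, against an oocyte mean of 109. These likenesses were taken over all 15 arrays, whose labels give one amplification scheme but which differ in spike-in signal, and were not recomputed without the 16-cell array.

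IGFBP7, IGFBP3 and SFRP2 are also made by fibroblasts and other stromal cells, and a list of 24 measured stromal genes, written after the 16-cell signals were seen, was read on the same array. On it 4 of the 24 were at least 4-fold above every other array, where 0.949% of all probe sets were. VIM, an intermediate filament gene of mesenchymal cells, read 1959 against at most 86.9 elsewhere. COL1A2 read 2432 against 260, LUM read 1397 against 256 and THBS2 read 653 against 66.9. CD44 at 571 against at most 175 elsewhere, and COL5A2 at 486 against 174, were also highest there, by less than 4-fold. Every remaining gene of the list was higher on some other array. Among these, COL1A1 read 8.43, COL3A1 25.9, POSTN 12.7 and TAGLN 1.0. These genes were low on all arrays, at most 18.9, 84.8, 14.8 and 20.0 elsewhere, so their low readings were not particular to the 16-cell array. Brighter genes of the list were also well below their highest signal there. DCN read 80.1 against up to 1324 elsewhere, THY1 15.3 against 2421, FN1 589 against 10429 and SPARC 667 against 2104. The list summed to 13650 at 16 cells, against 2319 to 6667 in oocytes, 14467 to 15848 in morulae and 14408 to 20962 in blastocysts. The part of other cells in the IGFBP7 and IGFBP3 signals of this array was not tested.

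IGFBP4 encodes a binding protein that holds IGFs back until PAPPA cuts it. Its probe set read 29.5, 22.3 and 73.5 in blastocysts, against 7.34, 13.4 and 9.43 in oocytes and 12.4, 9.62 and 1.73 in morulae. All 3 blastocyst arrays lay above all oocyte and morula arrays, at a signal above the array's median on 1 array only. The log2 change was 1.05 in blastocysts against oocytes (SE 0.30, limma adjusted p = 0.0358), which passed, and 1.20 in blastocysts against morulae (SE 0.30, adjusted p = 0.238), which did not. With the replicate number as a block the change against oocytes had an adjusted p of 0.0540 and did not pass. The call held in 5 of 17 alternative settings, with adjusted p from 0.0226 to 0.230. It was lost without any 1 oocyte array and without blastocyst 1 or 3 (adjusted p from 0.0550 to 0.107).

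IGFBP5, a binding protein of bone and muscle, read 21.3, 18.5 and 19.4 in morulae, against 51.6, 34.4 and 35.9 in oocytes. The arrays did not overlap, but the log2 change of -0.65 (SE 0.24, limma adjusted p = 0.0897) did not pass. It did with quantile normalization (-0.77, adjusted p = 0.0407) and after median centring of the arrays (-0.84, adjusted p = 0.0406). In blastocysts it read 35.4, 16.1 and 16.5, a log2 change of -0.57 against oocytes (SE 0.24, adjusted p = 0.133). IGFBP1, a binding protein of liver and of the uterine lining, stayed between 10.6 and 29.5 on all arrays.

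IGFBP2, a carrier that is common in fetal tissues, was dim on every array but 1. It read 10.2 and 169 in 1-cell embryos, against 9.44, 24.4 and 3.06 in oocytes, and stayed between 1.11 and 22.7 from the 2-cell array to the blastocyst. The log2 change of 1.37 in 1-cell embryos against oocytes (SE 0.66, limma adjusted p = 0.708) was carried by 1-cell 2. It was -0.04 without 1-cell replicate 2 and 2.78 without 1-cell replicate 1 (adjusted p = 0.0266), each fit holding a lone 1-cell array that is assumed to vary like the other stages. The genes most like it over the 15 arrays were VAV1 at a Pearson correlation of 0.918, DLX4 at 0.840 and ARID3B at 0.812. VAV1 averaged 143 in 1-cell embryos and at most 16.8 in any other stage. DLX4 and ARID3B averaged 190 and 169 in 1-cell embryos, also above each of their other stage means. The stage means of IGFBP2 spanned 2.02 on the log2 scale, just past the limit of 2. These likenesses were not recomputed without 1-cell 2, the array on which IGFBP2 was high. Of the family's other carriers, IGFBP6 never exceeded 7.30 and IGFALS, the subunit that stabilizes IGF and IGFBP3 in blood, stayed between 18.6 and 43.1.

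The RNA-binding proteins named for IGF2 messenger RNA went opposite ways between the oocyte and the morula. IGF2BP1, which binds IGF2 and many other transcripts, read 107, 61.7 and 39.9 in oocytes, 66.2 and 82.0 in 1-cell embryos, 90.3 at 2 cells, 54.7 at 4 cells, 1182 at 8 cells and 3145 at 16 cells. It read 4387, 4577 and 3880 in morulae and 1603, 2788 and 3250 in blastocysts. The log2 change was 5.72 in morulae (SE 0.42, limma adjusted p = 3.12e-05) and 4.92 in blastocysts (SE 0.42, adjusted p = 6.48e-05), both against oocytes. It was -0.80 in blastocysts against morulae (SE 0.42, adjusted p = 0.723), which did not pass.

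IGF2BP3 went the other way at both of its probe sets. The brighter one read 966, 1088 and 939 in morulae and 792, 1263 and 1853 in blastocysts, against 5337, 9461 and 6702 in oocytes. Its log2 change was -2.79 in morulae (SE 0.35, limma adjusted p = 5.12e-04) and -2.49 in blastocysts (SE 0.35, adjusted p = 9.94e-04), both against oocytes. The other had -2.97 (adjusted p = 5.25e-04) and -1.89 (adjusted p = 0.00652), and 1.08 in blastocysts against morulae, which did not pass (adjusted p = 0.477). Among the single arrays IGF2BP1 was first high at 8 cells, where the IGF2BP3 probe sets read 6760 and 3519, and these were lower at 16 cells, at 3460 and 258. With the spike-in arrays alone the directions were the same, and IGF2BP1 had 5.89 and the brighter IGF2BP3 probe set -3.06 in morulae, although no probe set of the array passed there.

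**Figure D5:**
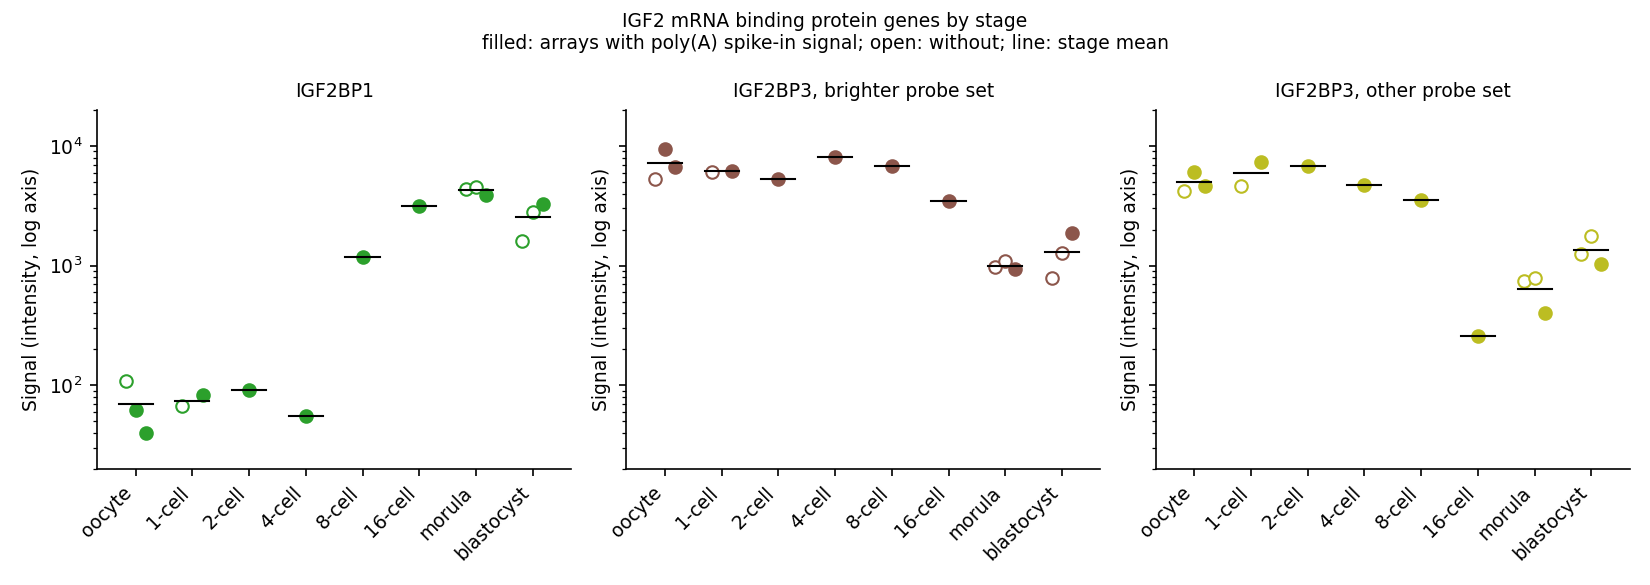
Signal of IGF2BP1 and of the 2 IGF2BP3 probe sets on each array (points, log axis) by stage, with the stage mean as a line. Filled points are arrays with spike-in signal and open points are arrays without. IGF2BP1 reads 54.7 at 4 cells, 1182 at 8 cells and 3145 at 16 cells, and both IGF2BP3 probe sets are lower in morulae and blastocysts than in oocytes.

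Lists of genes that act with the family were read next. Over all 9155 genes, 17.8% rose and 8.67% fell in morulae against oocytes, with a median log2 change of 0.14, and in blastocysts against oocytes 18.1% rose and 9% fell, with a median of 0.11. The lists were read against these shares, with the brightest probe set per gene. In 1-cell embryos against oocytes and in blastocysts against morulae, none of their genes passed the test with limma, including PRSS23, RHEB, DDIT4, NRAS, VPS35 and GNPTAB, which were among their brightest members.

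The proteases that cut binding proteins and their inhibitors moved both ways. Of 13 measured, 2 rose, 2 fell and 9 did not pass in morulae against oocytes, and the counts were the same in blastocysts. PLAU, the urokinase that activates plasmin, averaged 3178 ± 1946 in morulae and 64.3 ± 27.4 in oocytes (SD, n = 3 each). It rose by 5.11 on the log2 scale in morulae (SE 0.67, limma adjusted p = 5.98e-04) and by 7.05 in blastocysts (adjusted p = 1.16e-04). MMP1, a collagenase, rose by 0.83 in morulae at a mean signal of 33.5 (adjusted p = 0.0143), and CTSD, a lysosomal protease, rose by 2.93 in blastocysts (adjusted p = 0.0287). MMP1 did not pass without morula 2 (adjusted p = 0.0507), nor CTSD without oocyte 1 or 2 or blastocyst 1 or 3 (adjusted p from 0.0837 to 0.100). HTRA1, a serine protease that cuts binding proteins, had log2 changes of -2.79 in morulae (adjusted p = 0.00652) and -2.81 in blastocysts (adjusted p = 0.00634).

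PAPPA, whose product cuts IGFBP4 and IGFBP5, averaged 57.8 ± 17.7 in morulae and 65.3 ± 21.5 in blastocysts, against 160 ± 19.7 in oocytes (SD, n = 3 each). It fell by 1.27 in morulae (SE 0.34, limma adjusted p = 0.0254) and by 1.15 in blastocysts (adjusted p = 0.0395), both on the log2 scale. Its other probe set did not pass. The calls held in 10 and 9 of 18 alternative settings. The first was lost without any 1 oocyte array or morula 1 or 2 (adjusted p from 0.0511 to 0.0956), and the other without any 1 oocyte array or blastocyst 1 or 2 (adjusted p from 0.0659 to 0.137).

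Of the insulin receptor side, 5 genes were measured and 1 fell in each of the later stages. SHC1, an adaptor that couples IGF1R and INSR to Ras, averaged 2794 ± 395 in morulae and 1479 ± 660 in blastocysts, against 7854 ± 466 in oocytes (SD, n = 3 each). Its log2 change was -1.49 in morulae (SE 0.32, limma adjusted p = 0.00948) and -2.48 in blastocysts (SE 0.32, adjusted p = 6.01e-04). The other 2 probe sets of SHC1 did not pass. INS, the insulin gene, never exceeded 17.8, and GRB10, an inhibitory adaptor of both receptors, stayed between 11.8 and 105. PTPN1, a phosphatase that acts on both receptors, ranged from 403 to 7315 and did not pass.

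Of 18 genes of the PI3K, AKT and mTOR pathway, 3 rose in morulae and 2 in blastocysts against oocytes, and none fell. BAD, a promoter of cell death that AKT restrains, averaged 3806 ± 998 in morulae and 610 ± 489 in blastocysts, against 59.5 ± 20.0 in oocytes (SD, n = 3 each), with log2 changes of 5.66 (limma adjusted p = 2.25e-04) and 2.75 (adjusted p = 0.0117). RPS6KB2, an S6 kinase, rose by 5.27 in morulae (SE 1.11, adjusted p = 0.00841). RPTOR, the scaffold of mTOR complex 1, rose by 1.44 in morulae (adjusted p = 0.0246) and by 2.14 in blastocysts (adjusted p = 0.00346), the morula call being lost without oocyte 3 or morula 1 or 2 (adjusted p from 0.0593 to 0.0854). AKT1 read 912 to 4743 over all arrays and did not pass.

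Of 11 genes of the Ras and MAPK pathway, 1 rose and 2 fell in morulae, and 2 rose and none fell in blastocysts, against oocytes. MAPK3, a kinase also called ERK1, had log2 changes of 2.16 in morulae (SE 0.41, limma adjusted p = 0.00464) and 1.85 in blastocysts (adjusted p = 0.0104). HRAS, a Ras protein, rose by 1.23 in blastocysts (adjusted p = 0.0368), which did not hold without oocyte 1 or 2 or any 1 blastocyst array (adjusted p from 0.0639 to 0.102). MAP2K1, the kinase that activates MAPK3, fell by 2.70 in morulae (adjusted p = 0.00391). RASA1, which switches Ras off, fell by 3.82 in morulae (adjusted p = 0.0184), but not without oocyte 1 or 2 (adjusted p = 0.0521 and 0.0675), and its other probe set did not pass.

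The sorting machinery of mannose 6-phosphate receptors, which carries IGF2R between the Golgi and endosomes, had the largest number of calls among these lists of unequal size. Of 16 genes measured, 5 rose and 1 fell in morulae, where 17.8% of all genes rose and 8.67% fell. As many did in blastocysts, where 18.1% of all rose and 9% fell. The median log2 change was 1.01 and 0.95, beside 0.14 and 0.11 over all genes. SNX2, a sorting nexin of the retromer coat, averaged 5598 ± 159 in morulae and 6033 ± 1340 in blastocysts, against 99.9 ± 67.9 in oocytes (SD, n = 3 each). Its log2 changes were 5.75 (SE 0.44, limma adjusted p = 3.56e-05) and 5.84 (adjusted p = 3.46e-05). SNX1, its partner, had 5.65 (adjusted p = 4.93e-04) and 5.22 (adjusted p = 7.85e-04). GGA1, an adaptor that loads these receptors into vesicles, had 5.00 (adjusted p = 9.10e-05) and 4.17 (adjusted p = 2.45e-04), and its other probe set did not pass. PLIN3, which binds the receptors' tails, had 4.28 (adjusted p = 1.27e-04) and 4.20 (adjusted p = 1.55e-04). The fifth rise was that of VPS29, a retromer subunit, and the fall was that of AP1S1, an adaptor subunit, both named after their values were seen.

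M6PR, the gene of the cation-dependent mannose 6-phosphate receptor, stayed between 298 and 1336 on all 15 arrays.

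In the order of protein-coding genes of the RefSeq annotation of assembly ARS-UCD2.0, IGFBP1 and IGFBP3 are direct neighbours, as are IGFBP2 and IGFBP5, and IGF2 and INS.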

How the data were processed

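Total RNA was amplified in several rounds, labelled with biotin and hybridized, per the labels' protocols. The authors deposited a table of intensity values on a linear scale for 24128 probe sets on 15 arrays. For probe summarisation, scaling, software and detection calls, the method is not given in the sources used here. No deposited column was left aside. Signals of different probe sets do not rank genes by transcript level.

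After 112 control probe sets were left out, 24016 were tested with limma (version 3.58.1, R 4.3.3; Python 3.11.15 and matplotlib 3.10.9 for summaries and figures) on log2(signal + 16): 1 mean per stage over all 15 arrays, an intensity trend in the variance and Benjamini-Hochberg adjustment at 0.05. The procedure was also run on simulated arrays with independent noise. These held no spike-in classes and no deviations shared by same-numbered arrays, so they do not bear on those features of the data. Gene symbols came from the platform's annotation, updated to RefSeq ARS-UCD2.0: 13292 probe sets had 1 symbol, 86 several and 10638 none. For lists, the brightest probe set of each gene was used.

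The members, lists, alternatives and naming rule were chosen with earlier results of these data known. The rule named all member probe sets, INSR and the IGF2 messenger RNA binding proteins, per list up to 4 genes past the test with the largest changes, or else the 2 with the highest mean, and the 3 genes most like each member whose stage means spanned at least 2 on the log2 scale. The genes read only by signal were added after their values were seen. The markers also held 5 trophectoderm genes (3 rose in morulae and 5 in blastocysts against oocytes), 3 inner cell mass genes (2 and 1 rose), 3 primitive endoderm genes (2 and 2 rose), 6 sperm genes (1 and 1 rose) and 4 blood genes (1 and 0 rose), with no fall. Over all genes 17.8% rose and 8.67% fell in morulae, and 18.1% rose and 9% fell in blastocysts.

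Samples were grouped by the stage in their titles. Same-numbered arrays of oocytes, morulae and blastocysts deviated together from their stage means (correlations of 0.107 to 0.306 over probe sets), so the replicate block was read as pairing those arrays. The labels do not say that the numbers mark shared collections. In these stages the arrays numbered 1 lacked the spike-in signal and those numbered 3 carried it. The part of the spike-in class in these correlations was not tested. For 1-cell embryos and oocytes the correlations were 0.183 and -0.116, which gives no ground for pairing them. The block was fitted over the 4 replicated stages together, however, so it also paired 1-cell arrays with same-numbered oocyte arrays. Alternatives were quantile normalization, median centring, leaving out the lowest 33% of probe sets, pseudocounts of 1 and 64, no intensity trend, the compared stages alone, the replicate block, leaving out each replicate or all arrays numbered 3, and the spike-in class as a block or each class alone.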

Additional observations from a re-analysis of the deposited data

How the results depend on the processing

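The count of IGF family probe sets past the test was small and moved with the settings. In morulae against oocytes it was 1, a higher one, and it was 2 with quantile normalization, both lower, 3 without the arrays numbered 3, 0 without the lowest 33% of probe sets, without an intensity trend, with the compared stages alone and with either spike-in class alone, and 0 to 3 when single replicates were left out. In blastocysts against oocytes it was 1, and it was 2 without the arrays numbered 3 and with the arrays without spike-in signal alone. It was 0 with quantile normalization, centring, the low filter, a pseudocount of 1, no intensity trend, the compared stages alone, the replicate block and the spike-in arrays alone, and 0 to 1 without single replicates. In 1-cell embryos against oocytes it was 0, and 0 to 2 without single replicates, where a lone 1-cell array is assumed to vary like the other stages. In blastocysts against morulae it was 0 in all of these settings that could be run.

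Over all probe sets, 4550 passed in morulae against oocytes, 7102 without the arrays numbered 3, 0 with the spike-in arrays alone and 3260 to 4964 without single replicates. In blastocysts against oocytes 4624 passed, and 0 with the spike-in arrays alone. In blastocysts against morulae 40 passed, 13 and 66 with pseudocounts of 1 and 64, 95 without the arrays numbered 3, 0 with the compared stages alone or either spike-in class alone, and 3 to 71 without single replicates. In 1-cell embryos against oocytes 65 passed, 38 with quantile normalization, 35 with centring, 42 with a pseudocount of 1, 110 without an intensity trend, 419 without the arrays numbered 3, 38 with the replicate block, 0 with the compared stages alone or either spike-in class alone, and 8 to 169 without single replicates. Each spike-in class alone leaves fewer arrays, and with 1 array in a stage that array is assumed to vary like the others. The cause of the other shifts was not tested.

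Of 62 single changes in 1099 alternative values, 987 kept direction and call, 98 lost the call, 12 gained it and 2 changed sign: IGFBP7 in morulae against oocytes was 0.0091 with the spike-in arrays alone, and IGFBP2 in 1-cell embryos against oocytes was -0.0417 without 1-cell replicate 2 and 2.778 without replicate 1. The replicate block ended no call of the family other than that of IGFBP4 in blastocysts. Without a detection call, the many signals under 100 have no stated limit of background.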
